A study of Mus musculus with 8 samples.

Results

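The genes described here encode myostatin (*Mstn*), the activin beta A subunit (*Inhba*), the 3 TGF-beta ligands (*Tgfb1*, *Tgfb2* and *Tgfb3*), a bone morphogenetic protein (*Bmp4*), the extracellular binding proteins *Fst*, *Fstl1* and *Ltbp4*, and the activin type II receptor *Acvr2b*. They were taken by symbol, as 10 of the 16686 genes with an identifier in a table of read counts from tibialis anterior (TA) muscle. Rows were matched by symbol and not by their values, but the genes were chosen with earlier results of these data known. The muscle came from 4 WTOld mice and 4 C2-/-Old mice, all male, of the FVBN strain and 22 months of age, with one library of poly(A)-selected RNA per mouse. C2-/- mice lack fast myosin-binding protein C because exons 2 to 22 of *Mybpc2* were replaced by a Neo cassette flanked by LoxP sites. No tissue-specific driver is named for this allele, and the WTOld mice are described as FVBN wild type. The comparison of the 2 genotypes asks how old fast muscle differs when this protein is absent.

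Members of the TGF-beta superfamily are secreted dimers that bind pairs of type I and type II serine/threonine kinase receptors, and these phosphorylate Smad transcription factors. Myostatin, made mainly by muscle fibres, and activin A bind ACVR2B and ACVR2A, signal through SMAD2 and SMAD3, and limit muscle mass, while follistatin binds and neutralises both ligands. TGF-beta ligands are stored in the matrix as latent complexes held by LTBP proteins and are best known in muscle for driving matrix production, and BMP4 signals through SMAD1, SMAD5 and SMAD8.

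Library totals ran from 25425981 to 29747684 expected counts over the 8 mice, with TMM scaling factors from 0.929 to 1.03. The detection floor of 3 counts was worth 0.104 to 0.116 CPM, a count scaled to the TMM-scaled total of its library, and covers only the error of counting. *Mybpc2* (gene ID 233199, chromosome 7, 44501699 to 44524722, GRCm38.p6) lay between 4963 and 7390 CPM in WTOld. In C2-/-Old it lay between 3.85 and 4.35 CPM in replicates 1, 2 and 4 and at 38.3 CPM in replicate 3. Its log2 fold change was −8.82 ± 0.94 (SE, edgeR, adjusted p = 0.0075). Markers of the fast muscle fibre were the bulk of the marker signal in each mouse, with a summed level of 132908 to 179308 CPM in WTOld and 137509 to 157054 CPM in C2-/-Old. WTOld replicate 2 stood apart among the genes described here, being the lowest of the 8 mice for *Fstl1*, *Tgfb2*, *Acvr2b* and *Ltbp4* and the highest for *Fst* and *Tgfb1*. It also had the lowest length score (long genes relative to short genes, on a log2 scale), at −0.328 against −0.174 to 0.23 in the others. Values without it are given beside the results that it moved most.

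The stretch before the start site of 3 of these genes is shown first, because they are the muscle ligand of the group and the 2 genes with the smallest p between genotypes. Promoter windows of 250 bases, from RefSeq on GRCm38.p6, were at hand for 8 of the 10 genes. The reference is the C57BL/6J genome and not that of the FVBN mice. Each is written 5′ to 3′ on the strand of the gene, ending at the base before the start site, and capitals mark motifs. Both strands were searched for the Smad box, whose letters are CAGAC, for a GC-rich Smad element with the letters GGCGCC, and for the E-box, spelled CANNTG. The search also covered a loose form of the AP-1 element, spelled TGANTCA with N for any base, and the TATA box with the letters TATAAA.
*Mstn*, chr1:53061390-53061639, + strand: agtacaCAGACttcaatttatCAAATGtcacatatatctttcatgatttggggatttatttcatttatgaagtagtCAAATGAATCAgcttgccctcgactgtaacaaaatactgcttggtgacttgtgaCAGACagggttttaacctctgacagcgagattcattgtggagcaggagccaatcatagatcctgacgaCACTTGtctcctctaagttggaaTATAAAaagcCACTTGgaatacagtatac
*Inhba*, chr13:16011601-16011850, + strand: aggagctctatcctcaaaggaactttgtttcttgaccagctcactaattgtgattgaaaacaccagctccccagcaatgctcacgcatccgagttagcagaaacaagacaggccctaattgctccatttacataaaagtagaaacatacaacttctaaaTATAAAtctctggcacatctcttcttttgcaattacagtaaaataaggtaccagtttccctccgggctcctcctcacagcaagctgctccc
*Fstl1*, chr16:37776805-37777054, + strand: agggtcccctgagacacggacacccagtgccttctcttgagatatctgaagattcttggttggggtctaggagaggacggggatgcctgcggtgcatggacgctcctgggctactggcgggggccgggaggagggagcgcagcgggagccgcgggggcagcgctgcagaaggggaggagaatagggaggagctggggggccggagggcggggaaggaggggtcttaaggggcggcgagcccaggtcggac

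The *Mstn* window held 2 Smad boxes, which begin 244 and 120 bases before the start site. It held 4 E-boxes, the sequence bound by the myogenic regulatory factors, which begin 229, 174, 52 and 19 bases before the start site. A match to the loose AP-1 letters, reading TGAATCA, begins at 170 bases and overlaps the second E-box. A TATA box begins 29 bases before the start site. In the *Inhba* window a single TATA box was found, 91 bases before the start site, and the start site used for this gene lies inside the longer interval that the table gives it. In the *Fstl1* window none of the 5 motifs was found. The windows also differed in base composition, with 38.4% G and C for *Mstn*, 43.2% for *Inhba* and 68% for *Fstl1*, where the median of all windows was 52.4%. Among 32851 mouse windows of the same length, 42.2% held a Smad box, 9.59% a GC-rich Smad element and 66.2% an E-box. The loose AP-1 letters were in 6.75% and a TATA box in 12.4%. A match is a description of these letters and not a site of binding.

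Of the 10 genes, 8 had a fitted level above WTOld in the C2-/-Old mice and 2 a level below, where 45.8% of all 12542 tested genes lay above. Their median log2 fold change was 0.20, and that of all tested genes was −0.02. The 10 genes all passed the filter on low counts, and the genotypes did not overlap for 1 of them, where the share over all tested genes was 3.37%. None was called by edgeR at an adjusted p under 0.05 and above 1.5-fold, a rule that called 4 genes or 0.0319% of those tested, and none by limma-voom or DESeq2. With an unadjusted p under 0.05, 2 of the 10 were higher and none was lower, where the share over all tested genes was 3.38% higher and 1.91% lower. These 2 were *Fstl1* and *Inhba*, and leaving out any one mouse kept both under 0.05. *Inhba* passed the filter through the C2-/-Old mice, where all 4 had over 10 counts against 1 of 4 in WTOld, so the count of 2 is given as a description.

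**Figure D1:**
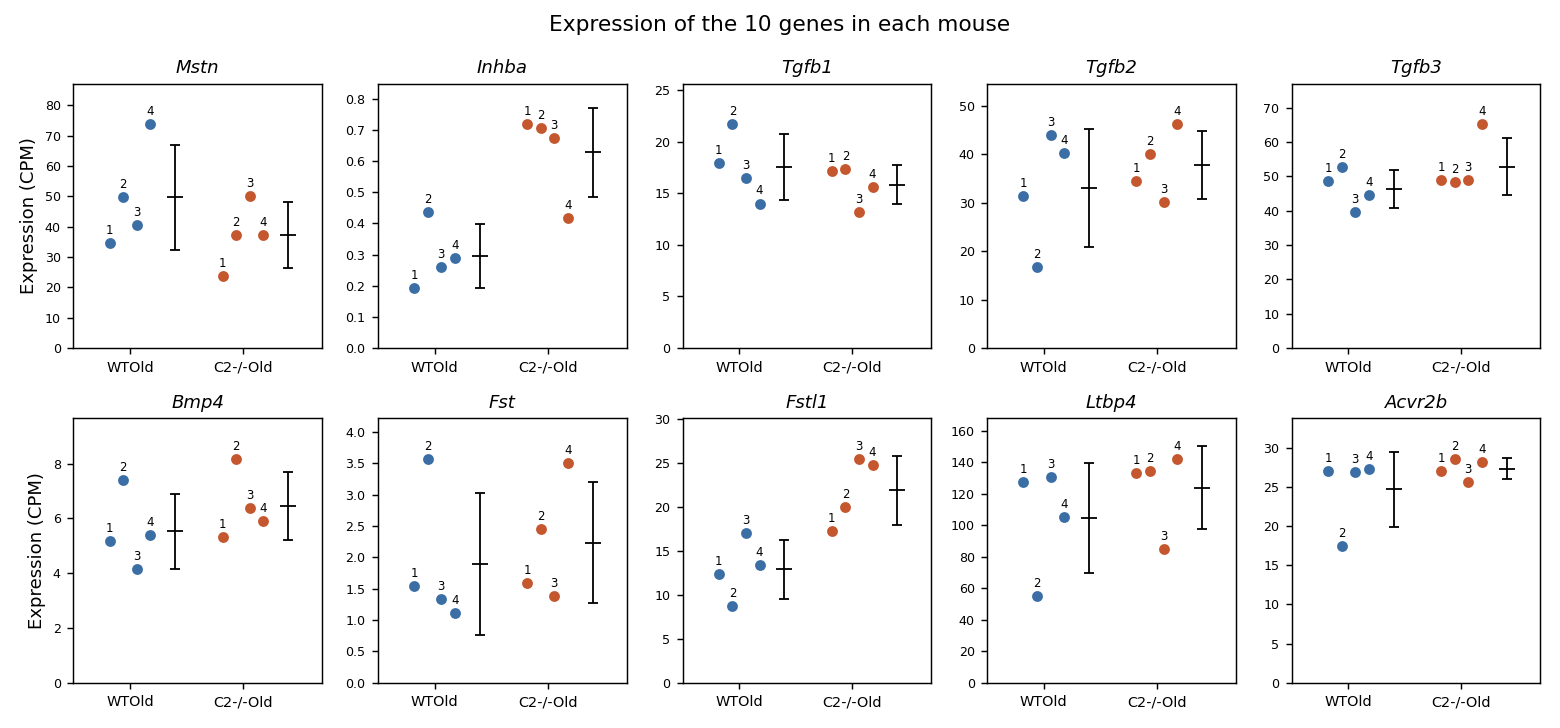
CPM of each of the 10 genes on linear axes, with one point per mouse, 4 WTOld and 4 C2-/-Old mice, and the genotype mean with its SD beside the points. The *Fstl1* points of the genotypes do not overlap, with 17.0 CPM in the highest WTOld mouse and 17.3 CPM in the lowest C2-/-Old mouse, and the points of the other 9 genes do.

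Myostatin varied widely between mice, and no difference between genotypes was detected beyond that spread. *Mstn* (gene ID 17700, chromosome 1, 53061640 to 53068079) had 34.8, 49.8, 40.5 and 73.9 CPM in WTOld replicates 1 to 4 and 23.7, 37.3, 50.3 and 37.4 CPM in C2-/-Old replicates 1 to 4. The genotypes overlapped, with the highest value in WTOld replicate 4 and the lowest in C2-/-Old replicate 1. The means were 49.8 ± 17.2 CPM and 37.2 ± 10.8 CPM (SD, n = 4 each). The log2 fold change was −0.42 ± 0.26 (SE, edgeR, unadjusted p = 0.142, adjusted p = 0.968), with a 95% interval from −1.01 to 0.17. Without WTOld replicate 4 the difference was −0.15. The interval leaves room for a level in C2-/-Old between 0.497 and 1.12 times that of WTOld.

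*Inhba* (gene ID 16323, chromosome 13, 15944764 to 16032275), whose product dimerises to activin A, was the least abundant of the 10 genes. The mice gave 5, 12, 7 and 8 counts in WTOld and 19, 19, 19 and 12 counts in C2-/-Old, which is 0.193, 0.438, 0.261 and 0.289 CPM against 0.719, 0.706, 0.674 and 0.416 CPM. In C2-/-Old, 3 values lay above all WTOld values, and that of replicate 4 lay just below WTOld replicate 2. The mean was 0.295 ± 0.103 CPM in WTOld and 0.629 ± 0.143 CPM in C2-/-Old (SD, n = 4 each). Fitted by edgeR, the log2 fold change was 1.07 ± 0.38 (SE, unadjusted p = 0.0179, adjusted p = 0.829), which is 2.1-fold with a 95% interval from 1.17 to 3.78. With counts this low the gene was not tested when at least 10 counts were required in every mouse. *Inhba* passed the filter on low counts through the C2-/-Old mice, so its p-value and interval are given as a description.

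For each of the 3 TGF-beta genes the 95% interval of the genotype difference included 0. *Tgfb1* (gene ID 21803, chromosome 7, 25687002 to 25705077), which encodes the best studied profibrotic isoform, had 17.9, 21.7, 16.5 and 14.0 CPM in WTOld and 17.1, 17.3, 13.2 and 15.6 CPM in C2-/-Old. Its log2 fold change was −0.15 ± 0.16 (SE, edgeR, unadjusted p = 0.363, adjusted p = 0.97; 95% interval −0.49 to 0.20), and it was −0.02 without WTOld replicate 2. *Tgfb1* and *Ltbp4* lie on the chromosome of the targeted gene, 18.8 and 17.2 Mb from *Mybpc2*.

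*Tgfb2* (gene ID 21808, chromosome 1, 186622787 to 186707033) had 31.3, 16.7, 44.0 and 40.2 CPM in WTOld and 34.4, 40.0, 30.1 and 46.2 CPM in C2-/-Old. The WTOld values spread more widely than the C2-/-Old values, with replicate 2 far below the rest. The log2 fold change was 0.19 ± 0.26 (SE, edgeR, unadjusted p = 0.493, adjusted p = 0.982) with all mice and −0.02 without WTOld replicate 2. *Tgfb3* (gene ID 21809, chromosome 12, 86056743 to 86079041) had 48.6, 52.8, 39.7 and 44.7 CPM in WTOld and 49.0, 48.3, 49.0 and 65.3 CPM in C2-/-Old, with a log2 fold change of 0.19 ± 0.14 (SE, edgeR, unadjusted p = 0.209, adjusted p = 0.968). C2-/-Old replicate 4 was the highest mouse for *Tgfb2*, *Tgfb3* and *Ltbp4*. Of the exon bases of *Tgfb3*, 12.4% are shared with genes on the opposite strand, against 3.96% for *Bmp4*, 2.51% for *Fst*, 2.14% for *Tgfb2* and none for the other 6 genes, and whether counting used the strand is not given in the sources used here.

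Per length, *Tgfb3* was the largest of the 3 TGF-beta genes in every mouse. Its share of their summed CPM per kilobase was 50.8% ± 5.53 in WTOld and 53.6% ± 3.46 in C2-/-Old (SD, n = 4 each; difference 2.81 points, two-sided exact permutation test, unadjusted p = 0.543). The share of *Tgfb1* was 25.2% ± 4.32 and 21.2% ± 2.93 (difference −3.93 points, exact permutation p = 0.143), and that of *Tgfb2* was 24.0% ± 9.06 and 25.1% ± 1.85 (difference 1.12 points, exact permutation p = 0.886). Adjusted over these 3 shares and the ratio of *Fst* to *Mstn*, the p-values were 0.724, 0.572 and 0.886, and 4 mice against 4 allow no p under 0.0286. Without WTOld replicate 2, in which *Tgfb2* held 12.0%, the difference for *Tgfb2* was −2.89 points, that for *Tgfb1* was −2.02 points and that for *Tgfb3* was 4.91 points. Without WTOld replicate 3 the difference for *Tgfb3* was 0.493 points.

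**Figure D2:**
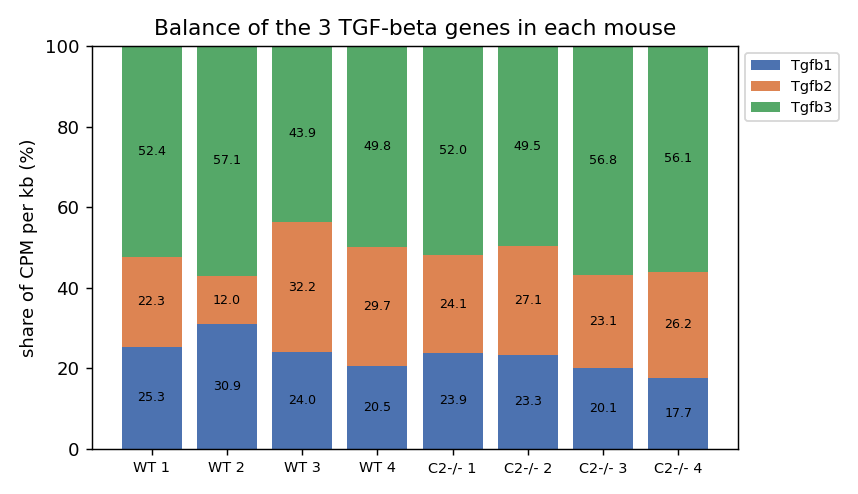
Share (%) of *Tgfb1*, *Tgfb2* and *Tgfb3* in their summed CPM per kilobase, with one stacked bar per mouse for 4 WTOld and 4 C2-/-Old mice. *Tgfb3* takes between 43.9% and 57.1% in every mouse, and WTOld replicate 2 has the smallest share of *Tgfb2*.

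*Bmp4* (gene ID 12159, chromosome 14, 46383525 to 46390669) had 5.17, 7.40, 4.14 and 5.39 CPM in WTOld and 5.33, 8.18, 6.38 and 5.89 CPM in C2-/-Old. The ranges overlapped over most of their length, and the log2 fold change was 0.22 ± 0.21 (SE, edgeR, unadjusted p = 0.307, adjusted p = 0.968). Without WTOld replicate 2 it was 0.40 (edgeR, unadjusted p = 0.055, adjusted p = 0.851), and without C2-/-Old replicate 2 it was 0.09.

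Among the binding proteins, *Fstl1* showed the difference with the smallest p of the 10 genes. *Fstl1* (gene ID 14314, chromosome 16, 37777055 to 37836516) encodes a secreted glycoprotein related to follistatin that is made largely by mesenchymal cells. It had 12.4, 8.79, 17.0 and 13.4 CPM in WTOld and 17.3, 20.0, 25.5 and 24.8 CPM in C2-/-Old. Each C2-/-Old mouse lay above each WTOld mouse, by a small margin between C2-/-Old replicate 1 and WTOld replicate 3. Genotypes that do not overlap with the higher values in C2-/-Old were found for 2.02% of all tested genes. On the deposited TPM scale the same pair of mice changed order, with 8.62 TPM in C2-/-Old replicate 1 and 9.37 TPM in WTOld replicate 3. The means were 12.9 ± 3.39 CPM and 21.9 ± 3.92 CPM (SD, n = 4 each). Its log2 fold change was 0.76 ± 0.20 (SE, edgeR, unadjusted p = 0.00362, adjusted p = 0.608), which is 1.7-fold with a 95% interval from 1.24 to 2.32. Without WTOld replicate 2 it was 0.62 (edgeR, unadjusted p = 0.00393, adjusted p = 0.462, in a range of 0.0996 to 1.0 over all settings tried).

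Markers of fibro-adipogenic progenitors, the resident mesenchymal cells of muscle, were summed beside *Fstl1*. The fitted log2 fold change was above 0 for all 6 markers. *Dpt* alone had an unadjusted p under 0.05 (edgeR, adjusted p = 0.647), where 3.38% of all tested genes were higher at this threshold. The group as a whole was not tested. None of the 6 was at 0. Their summed level was 82.6 to 118.7 CPM in WTOld and 126.6 to 146.2 CPM in C2-/-Old, without overlap. The largest parts of the sum were *Cd34* (means of 31.1 and 39.2 CPM) and *Ly6a* (27.8 and 30.6 CPM), and each overlapped between genotypes. Taken singly, 2 of the 6 (*Dpt* and *Lum*) did not overlap, where the share over all tested genes was 2.02% higher without overlap. The part of fibro-adipogenic progenitors in the *Fstl1* difference was not tested. In bulk muscle, more cells of a type and more RNA per cell cannot be told apart. Summed tendon markers were 58.4 to 175.3 CPM in WTOld and 91.0 to 241.1 CPM in C2-/-Old. Of 5 tested, 1 (*Tnmd*) was higher at an unadjusted p under 0.05 by edgeR, where the share over all tested genes was 3.38%. Macrophage markers were 17.3 to 41.6 CPM in WTOld and 30.2 to 47.7 CPM in C2-/-Old. Summed adipocyte markers were 2.39 to 9.56 CPM and 4.77 to 15.8 CPM, endothelial markers 206.9 to 306.5 CPM and 205.4 to 273.8 CPM, Schwann cell markers 18.4 to 54.2 CPM and 18.5 to 44.3 CPM, and satellite cell markers 0.875 to 1.48 CPM and 1.11 to 1.45 CPM. Slow fibre markers were 3.57 to 32.3 CPM and 2.23 to 7.45 CPM, and 2 of 4 were lower in C2-/-Old at an unadjusted p under 0.05, *Myh7* with overlap (edgeR, unadjusted p = 0.0321, adjusted p = 0.914) and *Myl2* without (log2 fold change −1.66, edgeR, unadjusted p = 0.00402, adjusted p = 0.615). The share of all tested genes that were lower at this threshold was 1.91%. WTOld replicate 4 had 20.9 CPM of *Myh7*, against 0.365 to 2.62 CPM in the other WTOld mice and 0.446 to 1.85 CPM in C2-/-Old. The other 2 had log2 fold changes of −0.95 (*Tnnt1*, edgeR, unadjusted p = 0.126) and 0.04 (*Tnni1*, edgeR, unadjusted p = 0.942). Immediate early genes were 49.6 to 1188 CPM and 32.6 to 748.1 CPM. The sum was high in WTOld replicates 2 and 4 and C2-/-Old replicate 2 (524.4, 1188 and 748.1 CPM), and lay between 32.6 and 80.5 CPM in the others. For the macrophage, adipocyte, endothelial, Schwann cell, satellite cell and immediate early lists no marker had an unadjusted p under 0.05.

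Follistatin was low and variable. *Fst* (gene ID 14313, chromosome 13, 114452262 to 114462047) had 1.54, 3.57, 1.34 and 1.12 CPM in WTOld and 1.59, 2.45, 1.38 and 3.50 CPM in C2-/-Old. One mouse of each genotype, WTOld replicate 2 and C2-/-Old replicate 4, stood well above most of the others. The log2 fold change was 0.24 ± 0.42 (SE, edgeR, unadjusted p = 0.587, adjusted p = 0.985; 95% interval −0.70 to 1.17), and it was −0.07 without C2-/-Old replicate 4 and 0.75 without WTOld replicate 2 (edgeR, unadjusted p = 0.0593, adjusted p = 0.858).

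Set against its ligand within a mouse, the log2 ratio of *Fst* to *Mstn*, computed on CPM + 0.1, was −4.41, −3.77, −4.81 and −5.92 in WTOld and −3.82, −3.87, −5.09 and −3.38 in C2-/-Old. The genotypes overlapped. The mean was −4.73 ± 0.905 in WTOld and −4.04 ± 0.732 in C2-/-Old (SD, n = 4 each; difference 0.689, two-sided exact permutation test, unadjusted p = 0.314, adjusted p = 0.628). The difference was 0.291 without WTOld replicate 4 and 1.04 without C2-/-Old replicate 3.

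*Ltbp4* (gene ID 108075, chromosome 7, 27305140 to 27339709), which holds latent TGF-beta in the matrix and is a known modifier of muscular dystrophy in mice, had 127.2, 55.2, 130.6 and 105.4 CPM in WTOld and 133.4, 134.6, 85.0 and 142.2 CPM in C2-/-Old. One mouse of each genotype, WTOld replicate 2 and C2-/-Old replicate 3, was low. The log2 fold change was 0.24 ± 0.26 (SE, edgeR, unadjusted p = 0.369, adjusted p = 0.971) with all mice and 0.04 without WTOld replicate 2.

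The receptor *Acvr2b* (gene ID 11481, chromosome 9, 119401584 to 119444831), through which myostatin and activins signal, varied little apart from one mouse. It had 27.0, 17.5, 26.9 and 27.3 CPM in WTOld and 27.0, 28.6, 25.6 and 28.2 CPM in C2-/-Old. Without WTOld replicate 2 all other mice fell between 25.6 and 28.6 CPM. Between genotypes the log2 fold change was 0.15 ± 0.15 (SE, edgeR, unadjusted p = 0.346, adjusted p = 0.968; 95% interval −0.19 to 0.48), and it was 0.02 without that mouse.

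**Figure D3:**
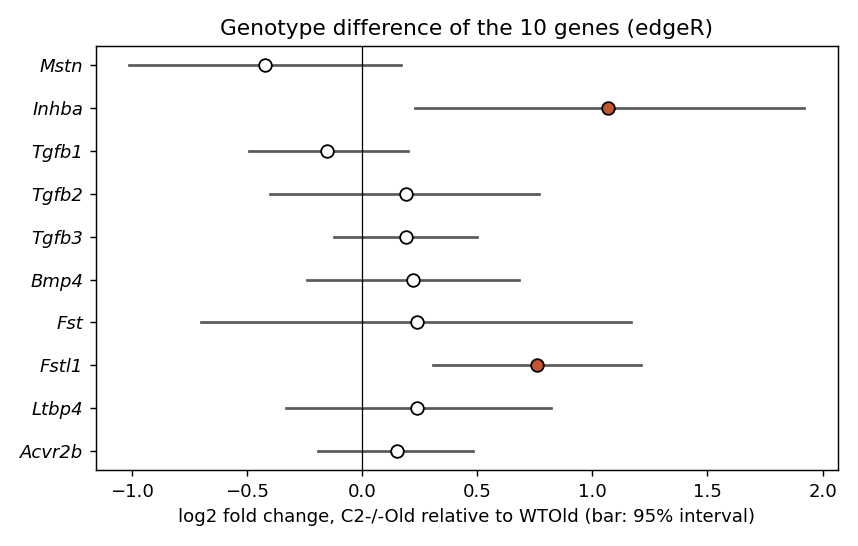
Log2 fold change of C2-/-Old relative to WTOld for each of the 10 genes from edgeR, with 95% intervals as bars. Filled points mark an unadjusted p under 0.05 (*Fstl1* and *Inhba*), and the intervals of the other 8 genes include 0.

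Ordered by the deposited TPM, which account for transcript length, the genes ran from *Ltbp4* (median 45.9 TPM over the 8 mice) through *Mstn*, *Tgfb3*, *Tgfb1*, *Tgfb2*, *Fstl1*, *Bmp4* and *Acvr2b* to *Fst* and *Inhba*. In this order *Tgfb3* lay above *Tgfb1*, *Acvr2b* above *Fst* and *Fst* above *Inhba* in all 8 mice, with ranges that did not overlap. *Ltbp4* exceeded *Mstn* in 5 of 8 mice, *Mstn* exceeded *Tgfb3* in 4 and *Tgfb1* exceeded *Tgfb2* in 3, so these neighbours did not differ beyond their spread.

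Among the 45 pairs of these genes, no correlation of log2 CPM across the 8 mice passed adjustment over the pairs (exact permutation of the pairings). Unadjusted, 4 pairs had p under 0.05, all positive. *Acvr2b* and *Ltbp4* gave Pearson r = 0.919 (exact permutation p = 0.00441, adjusted p = 0.135) and Spearman rho = 0.762 (exact permutation p = 0.0368, adjusted p = 0.688). Without the 2 mice farthest from the median of *Acvr2b*, WTOld replicate 2 and C2-/-Old replicate 2, r was 0.795. *Tgfb2* gave r = 0.928 with *Acvr2b* and 0.891 with *Ltbp4* (exact permutation p = 0.00632 and 0.0119, adjusted p = 0.135 for both; Spearman rho = 0.643 and 0.738, exact permutation p = 0.0962 and 0.0458, adjusted p = 0.744 and 0.688). Without the 2 mice farthest from the median of *Tgfb2*, WTOld replicate 2 among them, r was 0.579 and 0.453. For *Fst* and *Tgfb3*, r was 0.768 (exact permutation p = 0.012, adjusted p = 0.135; rho = 0.786, exact permutation p = 0.0279, adjusted p = 0.688) and 0.429 without WTOld replicate 2 and C2-/-Old replicate 4.

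**Figure D4:**
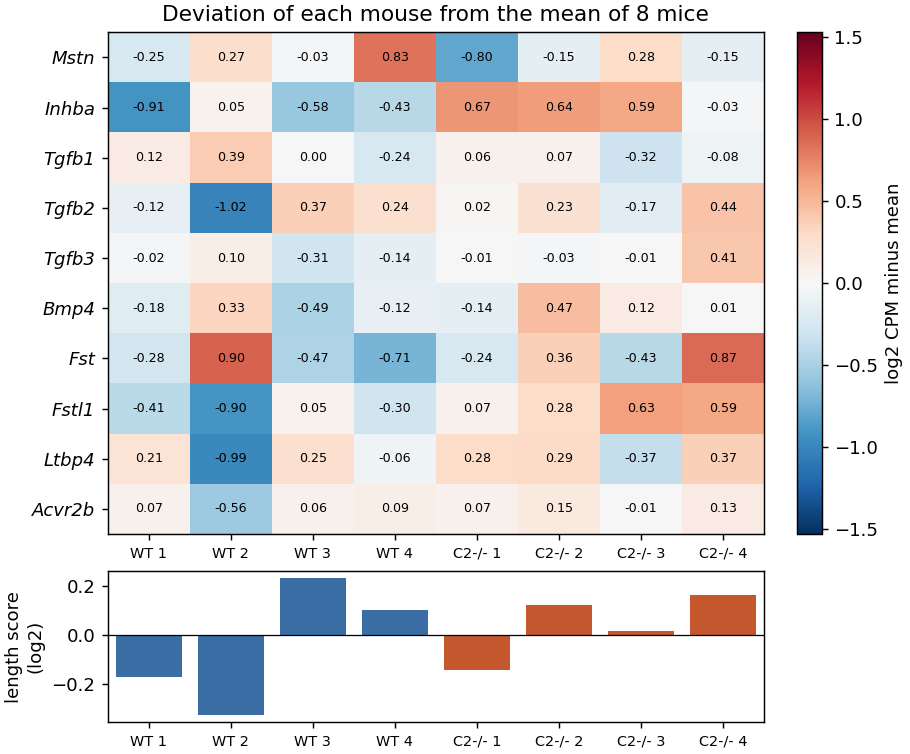
Deviation of log2 CPM from the mean of the 8 mice for each of the 10 genes (rows) in each mouse (columns, 4 WTOld and 4 C2-/-Old). WTOld replicate 2 is low in *Tgfb2* (−1.02), *Ltbp4* (−0.99), *Fstl1* (−0.90) and *Acvr2b* (−0.56) and high in *Fst* (0.90), and the bars of the lower panel, which give the length score (log2) of each mouse, are lowest for it at −0.328.

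The genes with the pattern most like *Mstn*, by Pearson r of log2 CPM over the 8 mice, were *Sun1* (r = 0.975, Spearman rho = 0.929), *Gphn* (r = 0.953, rho = 0.857) and *Frg2f1* (r = 0.946, rho = 1.0). Those most like *Fstl1* were *Adck5* (r = 0.978), *Col6a1* (r = 0.977), which encodes a chain of collagen VI, and *Arf3* (r = 0.974). These are the highest of 12542 genes over 8 mice and are given as a description. *Col6a1* had 25.5, 16.3, 34.5 and 31.1 CPM in WTOld and 43.0, 40.0, 54.9 and 53.1 CPM in C2-/-Old, without overlap and with a log2 fold change of 0.83 ± 0.22 (SE, edgeR, unadjusted p = 0.00308, adjusted p = 0.598).

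The rest of the pathway was read from lists by role, of which 66 genes were tested beside the 10, not counting the proteases given last. Their median log2 fold change was 0.04, with 36 above and 30 below 0. In C2-/-Old, 8 were higher and 2 lower at an unadjusted p under 0.05. The share over all tested genes was 3.38% higher and 1.91% lower, or 5.29% in either direction. None was called by edgeR at an adjusted p under 0.05. Target genes made up 6 of these 10. The count of 10 was 5 without C2-/-Old replicate 3 and 6 without C2-/-Old replicate 4. A further 10 genes of the lists had too few counts to be tested, and 1 had no row.

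Of 9 other ligands tested, 6 were higher and 3 lower (median 0.13). At an unadjusted p under 0.05, 1 was higher, where the share over all tested genes was 3.38%. *Bmp5*, a BMP ligand, had 5.09, 3.90, 7.20 and 3.87 CPM in WTOld and 5.75, 8.03, 7.52 and 8.66 CPM in C2-/-Old (log2 fold change 0.58 ± 0.22, SE; edgeR, unadjusted p = 0.0269, adjusted p = 0.882). The unadjusted p of *Bmp5* was over 0.05 without WTOld replicate 2 (0.0557) or 4 (0.0671) and without C2-/-Old replicate 2 (0.059) or 4 (0.0748). *Nodal*, known from embryonic patterning, lay between 0.255 and 0.485 CPM in WTOld and between 0.451 and 0.744 CPM in C2-/-Old (edgeR, unadjusted p = 0.0662, adjusted p = 0.968). Both genes overlapped between genotypes. *Nodal* had few counts, with its higher values in C2-/-Old, and was not tested when at least 10 counts were required in every mouse.

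Of 15 antagonists and latency proteins tested, 9 were higher and 6 lower (median 0.13), and 2 had an unadjusted p under 0.05, both higher and both without overlap. Over all tested genes, 3.38% were higher at this threshold and 2.02% were higher without overlap. *Bmper*, a secreted BMP-binding protein, had 0.732, 0.802, 1.49 and 1.52 CPM in WTOld and 1.93, 1.82, 2.23 and 2.01 CPM in C2-/-Old (log2 fold change 0.81 ± 0.30, SE; edgeR, unadjusted p = 0.0204, adjusted p = 0.849). Decorin, the small proteoglycan that binds collagen and TGF-beta, was the most abundant of them: *Dcn* had 245.9, 245.7, 261.8 and 185.4 CPM in WTOld and 269.9, 317.1, 298.0 and 289.6 CPM in C2-/-Old (log2 fold change 0.32 ± 0.13, SE; edgeR, unadjusted p = 0.028, adjusted p = 0.882). The summed fibro-adipogenic markers given above did not overlap between genotypes either, with 1 of 6 at an unadjusted p under 0.05, and their part in this was not tested.

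Of 11 receptors tested, 5 were higher and 6 lower (median −0.02). *Acvr1*, a type I receptor for activins and BMPs, lay between 13.9 and 15.8 CPM in WTOld and had 20.1, 20.5, 14.3 and 21.3 CPM in C2-/-Old, with replicate 3 inside the WTOld range (log2 fold change 0.33 ± 0.14, SE; edgeR, unadjusted p = 0.0419, adjusted p = 0.919). The unadjusted p of *Acvr1* was under 0.05 in 8 of 16 settings, and was 0.0572 with limma-voom and 0.0664 with the replicate block. *Acvrl1*, the endothelial type I receptor ALK1, lay between 12.7 and 15.1 CPM in WTOld and between 11.0 and 12.5 CPM in C2-/-Old, without overlap but with unadjusted p = 0.076 by edgeR (adjusted p = 0.968). Genotypes that do not overlap with the lower values in C2-/-Old were found for 1.36% of all tested genes.

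None of the 14 Smads and regulators had an unadjusted p under 0.05 (8 higher, 6 lower, median 0.03). *Smad4*, the Smad shared by all branches, was the nearest, at 95.5 to 98.5 CPM in WTOld and 73.3 to 93.1 CPM in C2-/-Old without overlap (log2 fold change −0.23 ± 0.10, SE; edgeR, unadjusted p = 0.0552, adjusted p = 0.944). *Tgif1*, a repressor of Smad-driven transcription, had 5.05, 31.6, 3.96 and 9.48 CPM in WTOld and 5.22, 9.93, 7.52 and 5.89 CPM in C2-/-Old. Its log2 fold change was −0.81 ± 0.57 (SE, edgeR, unadjusted p = 0.185, adjusted p = 0.968) with all mice and 0.22 without WTOld replicate 2.

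Among 17 target genes, 8 were higher and 9 lower (median −0.10). At an unadjusted p under 0.05 by edgeR, 4 were higher and 2 lower, where the share over all tested genes was 3.38% higher and 1.91% lower. Higher were the matrix genes *Col1a1*, *Fn1*, *Postn* and *Tgfbi*. The genotypes overlapped for *Postn* (edgeR, unadjusted p = 0.0177, adjusted p = 0.829) and for *Tgfbi* (edgeR, unadjusted p = 0.0422, adjusted p = 0.919). *Col1a1*, a chain of collagen I, had 41.9, 22.1, 70.7 and 68.0 CPM in WTOld and 96.1, 86.9, 156.6 and 158.5 CPM in C2-/-Old, without overlap (log2 fold change 1.30 ± 0.35, SE; edgeR, unadjusted p = 0.00366, adjusted p = 0.608). With DESeq2 its adjusted p was 0.0405, in a range of 0.0405 to 1.0 over all settings tried. *Fn1*, which encodes fibronectin, had 20.1, 14.6, 49.5 and 28.9 CPM in WTOld and 61.3, 38.0, 109.4 and 52.1 CPM in C2-/-Old (log2 fold change 1.20 ± 0.40, SE; edgeR, unadjusted p = 0.0125, adjusted p = 0.766). Without WTOld replicate 2 the log2 fold change of *Col1a1* was 1.06, and *Fn1* had an unadjusted p = 0.023 by edgeR. Over all settings tried, *Fn1* had an unadjusted p under 0.05 in 16 of 16. Its lowest adjusted p was 0.0755 (edgeR with the replicate block). The part of the fibro-adipogenic cells, whose summed markers are given above, in the matrix genes was not tested.

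Lower were *Id1*, a direct BMP target (log2 fold change −0.91, unadjusted p = 0.0421, adjusted p = 0.919 by edgeR), and *Cdkn1a*, the cell-cycle inhibitor p21 (log2 fold change −2.02, unadjusted p = 0.0369, adjusted p = 0.918 by edgeR). Both were highest in WTOld replicate 2, where *Cdkn1a* reached 404.5 CPM against 22.5 to 43.1 CPM in the other 7 mice. Without that mouse the log2 fold change of *Cdkn1a* was 0.01 (edgeR, unadjusted p = 0.966, adjusted p = 0.999) and that of *Id1* was −0.40 (edgeR, unadjusted p = 0.18, adjusted p = 0.994). These 2 genes and *Postn* and *Tgfbi* were named after their values were seen. Of 5 tested proteases that process the ligands, 4 were higher and 1 lower (median 0.42). Of these, 1 (*Bmp1*) was higher at an unadjusted p under 0.05, where the share over all tested genes was 3.38%. The genotypes overlapped for *Bmp1* (edgeR, unadjusted p = 0.048, adjusted p = 0.935).

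**Figure D5:**
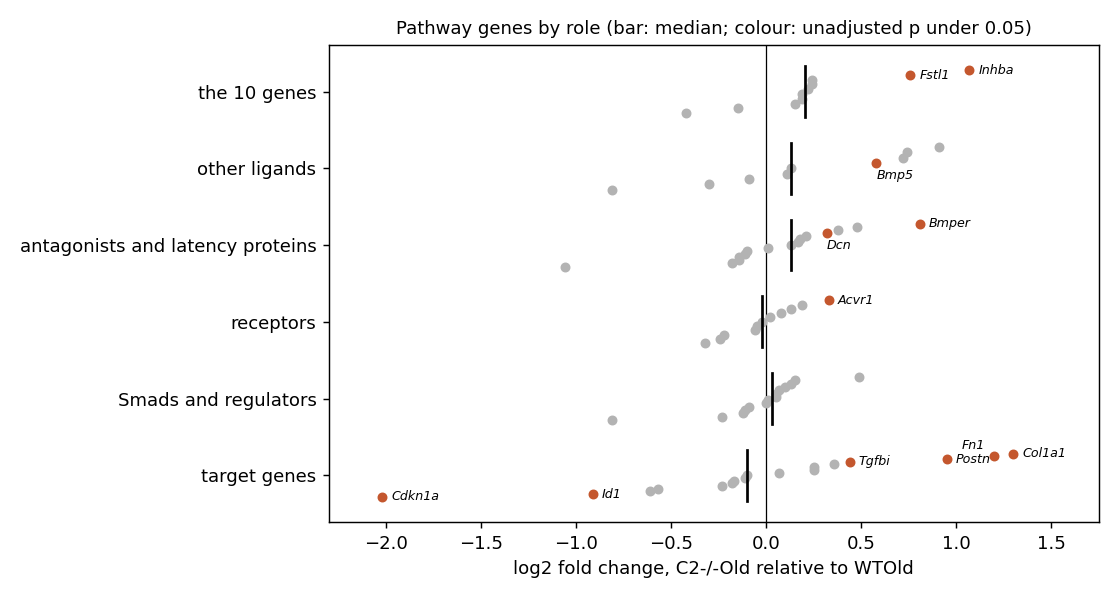
Log2 fold change of C2-/-Old relative to WTOld for the 10 genes and for the tested pathway genes by role, with one point per gene, vertical bars at list medians and coloured points at an unadjusted p under 0.05. The medians of the plotted lists, which leave out the proteases, lie between −0.10 and 0.20, and the coloured target genes lie on both sides of 0.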

How the data were processed

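TA muscle of 4 WTOld and 4 C2-/-Old male mice was sequenced, with one library per mouse, and mice were grouped by the genotype in their labels. The labels give an age of 22 months, and a protocol entry naming 2 months conflicts with it without touching the groups. The authors deposited expected counts per gene, not normalized, and TPM, scaled by the authors for transcript length and to a fixed sum per mouse. Their methods name HISAT for alignment to GRCm38 and featureCounts for counting, while the processing notes of the submitters name HISAT, Bowtie2 and DESeq2. Per mouse, 5.5% to 6.53% of counts were not whole, and they were rounded. Of 16687 rows, 16686 had a gene ID, and 25 symbols were restored from it. Columns with the authors' own fold change, p-value and q-value, and 8 FPKM columns, were not used. Where the table and GENCODE vM21 give another strand (*Fst*, *Tgfb2*, *Tgfb3*), no strand is printed.

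Genotypes were compared with the quasi-likelihood test of edgeR 4.0.16 (R 4.3.3), TMM factors and its default filter, which left 12542 genes, with Benjamini-Hochberg adjustment over all of them. CPM use TMM-scaled library sizes, and log2 CPM a prior count of 2. Standard errors follow from the fold change and the F statistic. Ratios and shares (transcript length: longest of the gene) were compared by two-sided exact permutation over 70 splits. The p-values set the genotype difference against the spread between these mice. Nothing states how the mice were bred, so genotype and any difference in breeding cannot be told apart. Alternatives were RLE factors, limma-voom (limma 3.58.1), DESeq2 1.42.0, no filter, at least 10 counts in every mouse, a replicate block, a pseudocount of 1, shares without length, and leaving out each mouse. A covariate of length score (median log2 deviation of the 3117 longest genes minus that of the 3117 shortest) and shares from TPM were added after the data had been seen.

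The genes described, the lists and the tests were chosen with earlier results of these data known. Named genes are the 10 genes, *Mybpc2*, the 2 genes of each pathway list with the smallest p, and the 3 genes most correlated with *Mstn* and with *Fstl1*. Python 3.11.15, pandas 2.3.3 and scipy 1.17.1 were used.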

Additional observations from a re-analysis of the deposited data

Results flagged for a closer look

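In 62 groups of 4 mice (each gene named by the rule and each ratio or share, in each genotype), 6 held a mouse whose distance from the nearest of the others took up an unusually large part of the group's range. Chance alone gives about 1 in 20 groups. *Inhba* was 0.416 CPM in C2-/-Old replicate 4, against 0.674 to 0.719 CPM in the others. *Tgfb3* was 65.3 CPM in C2-/-Old replicate 4, against 48.3 to 49.0 CPM. *Acvr2b* was 17.5 CPM in WTOld replicate 2, against 26.9 to 27.3 CPM. C2-/-Old replicate 3 stood apart for 3 genes: *Ltbp4* was 85.0 CPM against 133.4 to 142.2 CPM, *Acvr1* was 14.3 CPM against 20.1 to 21.3 CPM, and *Mybpc2* was 38.3 CPM against 3.85 to 4.35 CPM.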

How the results depend on the processing

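Among the alternatives run, *Fstl1* kept an unadjusted p under 0.05 in 16 of 16 settings (log2 fold change 0.62 to 0.93, adjusted p 0.0996 to 1.0) and *Inhba* in 15 of 15 (0.92 to 1.33). *Inhba* passed the filter on low counts through the C2-/-Old mice, where it is higher, so its settings are given as a description. With at least 10 counts in every mouse, *Inhba* was not tested, which left 1 of the 10 under this threshold. Pathway genes with an unadjusted p under 0.05, 10 with all mice, numbered between 5 and 13 when one mouse was left out, the lowest being 5 without C2-/-Old replicate 3 and 6 without C2-/-Old replicate 4. Direction reversed without WTOld replicate 2 for *Tgfb2* (leave-one-out range −0.02 to 0.36), for *Tgif1* (−1.10 to 0.22) and for the share of *Tgfb2* (−2.89 to 3.84 points), without WTOld replicate 4 for *Sun1* (−0.11 to 0.00), and without C2-/-Old replicate 4 for *Fst* (−0.07 to 0.75). *Col1a1* had an adjusted p under 0.05 only with DESeq2 (0.0405), which called 38 genes in all against 4 with edgeR. In all other cases (398 values of named genes, 81 others) the result held. For named genes this means the direction and the side of an adjusted p of 0.05. For the ratio and the shares it means the direction and the side of an unadjusted p of 0.05 (exact permutation). Counts stayed within 1.5 times. At an unadjusted p of 0.05 several named genes changed sides, being under it in 14 of 16 settings for *Bmper*, 13 for *Dcn*, 12 for *Bmp5*, 10 for *Adck5* and *Arf3*, 8 for *Acvr1* and 4 for *Smad4*. Over all 12542 tested genes, the deviations of same-numbered mice of the 2 genotypes correlated weakly (0.266, 0.0424, −0.0503 and 0.0209). Of 4 WTOld mice, 1 correlated best with its own number, and the replicate numbers were not taken as pairs. These correlations do not settle whether single genes varied with the replicate number. With the replicate block, 660 genes had an unadjusted p under 0.05 against 663, among them *Fstl1* and *Inhba*, and the count of pathway genes was 9. The block lowered the unadjusted p of *Col1a1* from 0.00366 to 3.89e-05 and of *Fn1* from 0.0125 to 4.21e-05 (edgeR, adjusted p = 0.0755 for both). For *Col6a1* the unadjusted p fell from 0.00308 to 0.000291 (edgeR). It rose for *Inhba* from 0.0179 to 0.0371 and for *Acvr1* from 0.0419 to 0.0664 (edgeR). Low counts limit *Inhba* (5 to 19 counts per mouse) and *Fst* (31 to 101 counts).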
